A study of Homo sapiens with 4 samples.

Results

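The high mobility group genes HMGA1, HMGA2, HMGB1, HMGB2, HMGB3, HMGN1, HMGN2, HMGN3, HMGN4 and HMGN5 were followed in SK-N-BE(2) cells after knockdown of SAPCD2. These 10 genes, taken as the members of the HMGA, HMGB and HMGN families and matched by GENCODE 44 symbol to the Ensembl identifiers of the count table, are 10 of its 64252 genes. SK-N-BE(2) is a human neuroblastoma cell line with amplified MYCN. The control cells carried a scrambled shRNA (sh-Scb) and the knockdown cells an shRNA against SAPCD2 (sh-SAPCD2). The study introduced its hairpins by lentivirus and selected stable cells with puromycin. Each group had 2 RNA-seq libraries. The labels do not say whether the libraries of a group came from separate cultures, so the p-values measure the spread between these libraries, which may be technical, and they do not say which of the study's hairpins against SAPCD2 was used.

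High mobility group proteins are small, abundant nuclear proteins that change the shape of DNA and chromatin without being histones. HMGA proteins hold the minor groove of AT-rich DNA with short AT-hooks, HMGB proteins bend DNA with paired HMG boxes and carry an acidic tail, and HMGN proteins bind the nucleosome core and loosen chromatin against the linker histone H1. Several of them are abundant in dividing and undifferentiated cells, and HMGB1 also acts outside the cell as an alarm signal of damaged tissue.

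The sh-SAPCD2 libraries held less mRNA of most of these genes. Of the 9 members that passed the filter on low counts, 6 fell at an adjusted p under 0.05 (HMGA1, HMGB1, HMGB2, HMGB3, HMGN1 and HMGN2), against 12.5% of all 18779 tested genes, in the quasi-likelihood test of edgeR, adjusted by Benjamini-Hochberg over all of them. HMGN4 alone rose by the same test. That is 1 of 9 members, against 12.4% of all tested genes, which is near the background. HMGN3 and HMGN5 did not pass, and HMGA2 had no count in any library. An adjusted p under 0.05 together with a fall of more than 1 on the log2 scale, which the study asked of a differentially expressed gene, was reached by 2 members, HMGA1 and HMGN2, against 5.15% of all tested genes. In 8 members both sh-SAPCD2 libraries lay below both sh-Scb libraries, against 33.4% of all tested genes. The median log2 fold change (sh-SAPCD2 minus sh-Scb, as throughout) was −0.90 over the 9 tested members and 0.02 over all tested genes. In bulk RNA, fewer cells of one kind and less RNA per cell cannot be told apart. Levels are given as CPM, the count of a gene relative to its library's total and scaled by the trimmed mean of M-values (TMM).

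**Figure D1:**
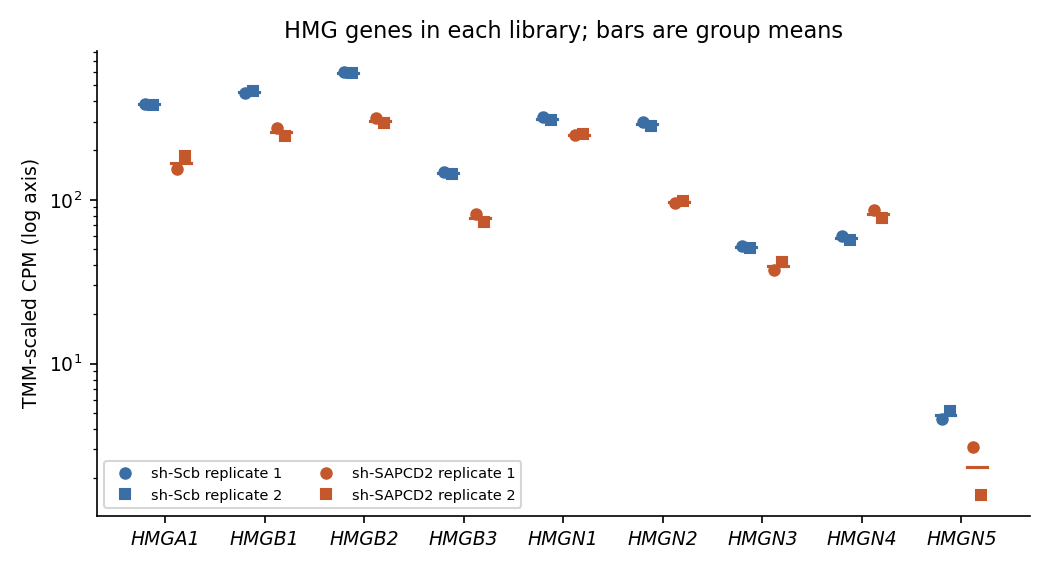
Level of each HMG gene in each library, in TMM-scaled CPM on a log axis. Circles are replicate 1, squares replicate 2, and short lines group means of 2 libraries; HMGA2, at 0 in every library, is not drawn. For HMGN4 alone both sh-SAPCD2 points lie above both sh-Scb points, at 87.0 and 77.5 against 59.9 and 56.5 CPM.

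The libraries held 25347900 to 31850997 counts in all. SAPCD2 itself, the targeted gene, stood at 83.6 and 82.2 CPM in the sh-Scb libraries and at 35.4 and 52.5 CPM in the sh-SAPCD2 libraries, with a log2 fold change of −0.91 (SE 0.193, edgeR adjusted p = 0.0206). The sh-SAPCD2 libraries differed more from each other than the sh-Scb libraries did, with a chi-square per degree of freedom of 38.6 against 4.47. All 8 genes listed as marks of an adrenergic neuroblastoma cell were expressed. Of these 8, 3 were lower in the sh-SAPCD2 libraries, ISL1 and DBH among them, against 12.5% of all tested genes. MYCN was the 1 that was higher, against 12.4%. The summed level of the list was 5352 and 5233 CPM in the sh-Scb libraries against 7588 and 9364 CPM in the sh-SAPCD2 libraries. MYCN alone gave 3235 and 3178 CPM of this sum against 5904 and 7091 CPM. The sum therefore does not show a rise of the markers as a group. The summed level of the 6 markers of other cell types (PTPRC, CD68, COL1A1, EPCAM, KRT8 and PECAM1) was 17.2 and 18.0 CPM in the sh-Scb libraries against 18.6 and 19.5 CPM in the sh-SAPCD2 libraries. Of the 5 tested 1 rose, against 12.4% of all tested genes. That one was CD68, at no more than 0.435 CPM in any library, and PECAM1 had no count in either sh-Scb library.

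HMGA1 encodes the AT-hook protein that makes up the whole of the HMGA family seen in these cells. The gene (ENSG00000137309) lies on the plus strand of chromosome 6 from 34236873 to 34246231 in hg38. It gave 386 and 379 CPM in the sh-Scb libraries and 153 and 184 CPM in the sh-SAPCD2 libraries. The knockdown libraries lay far below the controls, and they differed from each other more than the controls did. The mean of the knockdown libraries was 44.1% of the control mean. The log2 fold change was −1.18 (SE 0.120, edgeR adjusted p = 0.0033), and 5.67% of all tested genes had a lower one.

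HMGA2, the fetal and tumor-associated AT-hook protein, is a much longer gene (ENSG00000149948) on the plus strand of chromosome 12 from 65824460 to 65966291. It had 0 counts in each of the 4 libraries, which allows a level of up to 0.0955 to 0.119 CPM per library if 3 counts are taken as the limit, for counting error only. The pseudogene RPSAP52, and HMGA2-AS1 with the other 2 annotated long noncoding RNAs that overlap HMGA2, were also at 0 in every library.

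HMGA2 is a textbook target of the let-7 miRNAs, which LIN28 proteins keep from maturing. The sequence of let-7a is shown beside its matches because the genes around this circuit moved while HMGA2 stayed unmeasured. The capitals mark the seed (bases 2 to 8) in the miRNA, taken from RefSeq, and the complementary CTACCTC in the 3′ UTR of the canonical HMGA2 transcript, which holds 4 matches, starting at bases 21, 1256, 1668 and 2521.

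hsa-let-7a-5p: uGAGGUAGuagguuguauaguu
HMGA2, base 21: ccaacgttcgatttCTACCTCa
HMGA2, base 1256: cccactactcaataCTACCTCt
HMGA2, base 1668: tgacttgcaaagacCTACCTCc
HMGA2, base 2521: atcaaaacacactaCTACCTCt

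HMGA1 holds 1 such match and the other 8 members none, and 11.3% of 12486 protein-coding genes with at least 1 CPM hold at least 1. Of the 8 genes listed for the LIN28, let-7 and HMGA2 circuit, 5 were tested and all 5 rose, with a median log2 fold change of 0.82, and 2 of them did so when either sh-Scb library was left out. LIN28B, which binds let-7 precursors, stood at 56.5 and 55.3 CPM in the sh-Scb libraries and at 174 and 135 CPM in the sh-SAPCD2 libraries (log2 fold change 1.47, SE 0.146, edgeR adjusted p = 0.00322). TRIM71, a let-7 target first known from worm development, went from 10.8 and 9.89 CPM to 38.6 and 39.9 CPM (1.93, SE 0.136, edgeR adjusted p = 0.00201). ARID3B, IGF2BP3 and DICER1, the last the enzyme that cuts miRNA precursors, rose by 0.82, 0.68 and 0.52 on the log2 scale, and LIN28A, IGF2BP1 and IGF2BP2 were too low to test. Over all tested genes 12.4% rose. LIN28B holds 4 let-7 matches, TRIM71 6, ARID3B and IGF2BP3 1 each and DICER1 0. No small RNA was measured, so the level of let-7 itself is not known here.

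All 3 HMGB genes fell, by similar amounts. HMGB1 (ENSG00000189403, chromosome 13, minus strand, 30456704 to 30617597), the widely expressed DNA bender and extracellular alarm signal, stood at 447 and 464 CPM in the sh-Scb libraries and at 272 and 245 CPM in the sh-SAPCD2 libraries. Its log2 fold change was −0.82 (SE 0.101, edgeR adjusted p = 0.00505). HMGB2 (ENSG00000164104, chromosome 4, minus strand, 173331376 to 173334432), a close relative found mainly in dividing cells, stood at 603 and 592 CPM and at 316 and 293 CPM (−0.97, SE 0.0955, edgeR adjusted p = 0.00321). HMGB3 (ENSG00000029993, X chromosome, plus strand, 150980509 to 150990771), known from blood and other progenitor cells, stood at 147 and 143 CPM and at 82.2 and 73.3 CPM (−0.90, SE 0.108, edgeR adjusted p = 0.00471). In each of the 3 genes the sh-SAPCD2 library of replicate 1 was the higher of its pair, and no sh-SAPCD2 library reached a control library.

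The makeup of the HMGB family hardly moved while its level went down. Per kilobase of merged exons, the summed HMGB level was 345 ± 2.35 CPM (SD, n = 2) in the sh-Scb libraries and 180 ± 11.1 CPM in the sh-SAPCD2 libraries, so 52.3% was kept. HMGB2 made up 72.4% and 71.8% of this sum in the sh-Scb libraries and 70.0% and 70.7% in the sh-SAPCD2 libraries. The ratio of HMGB2 to HMGB1 per kilobase was 4.32 and 4.09 against 3.72 and 3.83, and that of HMGB3 to HMGB1 was 0.646 and 0.605 against 0.594 and 0.589. The groups did not overlap in either ratio, but the log2 differences of −0.16 and −0.08 were small beside the changes of the genes. A two-sided exact permutation test gave p = 0.333 for each of the 4 ratios compared in the HMGB and HMGN families (adjusted p = 0.333), the smallest that 2 libraries against 2 allow.

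**Figure D2:**
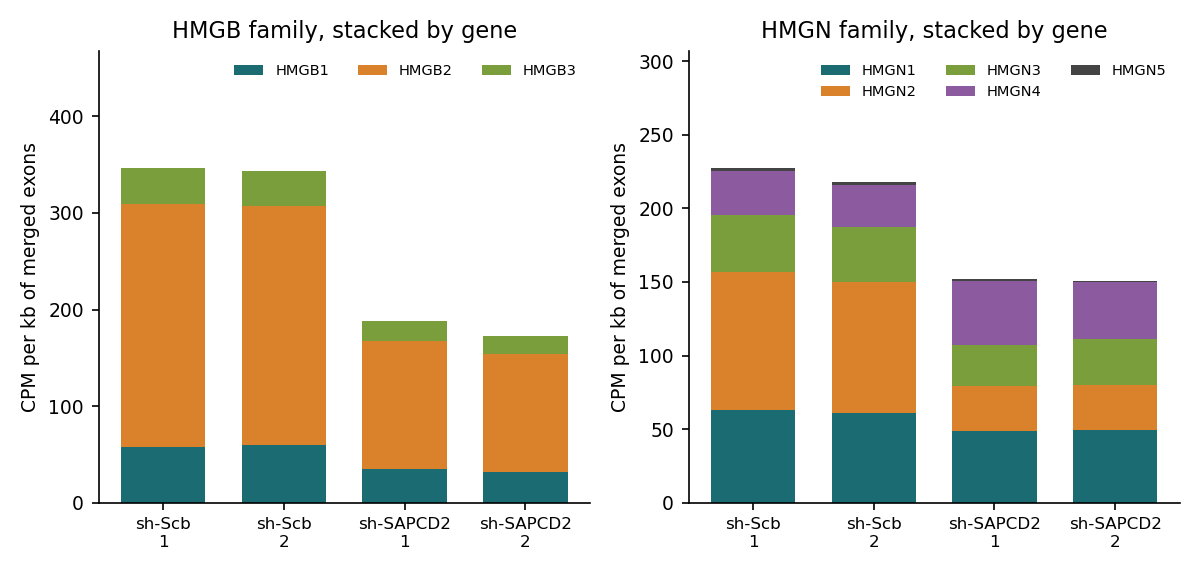
Stacked levels of the HMGB genes (left) and the HMGN genes (right) in each of the 4 libraries, in CPM per kilobase of merged exons. HMGB2 fills 70.0% to 72.4% of every HMGB bar, while HMGN2 fills 41.1% and 40.7% of the sh-Scb HMGN bars and 19.8% and 20.3% of the sh-SAPCD2 bars.

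HMGB1 has many processed copies in the genome, and how reads that match several places were counted is not given in the sources used here. The 48 rows of the table named as HMGB1 pseudogenes, 22 of them with counts, held 27.2% to 30.1% as many counts as HMGB1 itself. HMGB1P6 and HMGB1P5 fell with their parent, by 0.86 (edgeR adjusted p = 0.0113) and 0.83 (edgeR adjusted p = 0.00949) on the log2 scale. HMGB1P6 went from 80.0 CPM in both sh-Scb libraries to 49.6 and 38.7 CPM, and HMGB1P5 from 50.7 and 50.3 CPM to 30.6 and 26.1 CPM. How many of these reads came from HMGB1 was not tested, so the level of HMGB1 is less certain than its own counts show. For the other members the pseudogene rows held at most 1.86% of the member's own counts, and HMGA1P8, HMGB3P24, HMGN1P36, HMGN1P38, HMGN2P5 and HMGN2P15, the tested rows among them, did not pass, nor did HMGB1P10.

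The HMGN family did not move as one. HMGN2 (ENSG00000198830, chromosome 1, plus strand, 26472440 to 26476642), one of the founding nucleosome-binding HMGN proteins, stood at 298 and 283 CPM in the sh-Scb libraries and at 95.7 and 97.7 CPM in the sh-SAPCD2 libraries. Its knockdown mean was 33.3% of the control mean, the lowest share among the tested members, and its knockdown libraries lay close together. The log2 fold change was −1.59 (SE 0.0974, edgeR adjusted p = 0.00201), with 18 of all tested genes having a smaller p and 2.64% a lower fold change. HMGN1 (ENSG00000205581, chromosome 21, minus strand, 39342315 to 39349647), the other founding member, stood at 318 and 307 CPM and at 247 and 250 CPM. It fell by 0.33 on the log2 scale (SE 0.0918, edgeR adjusted p = 0.0459), a call that was lost in 6 of 13 alternative settings. DESeq2 gave an adjusted p of 0.0590, and edgeR gave 0.541 without sh-Scb replicate 1 and 0.465 without sh-Scb replicate 2.

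HMGN4 (ENSG00000182952, chromosome 6, plus strand, 26538366 to 26546933) is a retrogene that arose from a processed copy of HMGN2 and so has little of an intron-bearing gene's structure, with 2 annotated exons against 6 in HMGN2. It stood at 59.9 and 56.5 CPM in the sh-Scb libraries and at 87.0 and 77.5 CPM in the sh-SAPCD2 libraries. Both knockdown libraries were above both control libraries, the reverse of HMGN2. Whether HMGN2 and HMGN4 shared reads was not tested, which also bears on their ratio below. The log2 fold change was 0.50 (SE 0.116, edgeR adjusted p = 0.0273), and the call was lost in 3 of 13 alternative settings, with an edgeR adjusted p of 0.248 without sh-Scb replicate 1, 0.354 without sh-Scb replicate 2 and 0.0713 without the filter on low counts.

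HMGN3 and HMGN5 had values below the controls that did not pass the test. HMGN3 (ENSG00000118418, chromosome 6, minus strand, 79201245 to 79234689), an HMGN protein known from endocrine and neural tissue, stood at 52.4 and 51.1 CPM and at 37.5 and 41.8 CPM (−0.38, SE 0.121, edgeR adjusted p = 0.0655). It passed only when either sh-SAPCD2 library was left out. Its log2 fold change was −0.31 without sh-SAPCD2 replicate 1 and −0.46 without sh-SAPCD2 replicate 2. Such fits take the spread from the sh-Scb pair alone, whose libraries differed less from each other. The antisense gene HMGN3-AS1 overlaps 144 bp, or 10.7%, of the HMGN3 exons and stood at 0.796 to 1.85 CPM (−0.84, edgeR adjusted p = 0.131). Whether counting used the strand is not given in the sources used here. HMGN5 (ENSG00000198157, X chromosome, minus strand, 81113699 to 81201913), the HMGN protein with a long acidic tail, was the rarest, with 127 and 141 counts in the sh-Scb libraries and 79 and 50 counts in the sh-SAPCD2 libraries. Its log2 fold change of −1.06 carried an SE of 0.347 (edgeR adjusted p = 0.0730), and its sh-SAPCD2 libraries stood at 3.12 and 1.59 CPM against 4.60 and 5.12 CPM in the sh-Scb libraries. Without sh-SAPCD2 replicate 1 the log2 fold change was −1.61, without sh-SAPCD2 replicate 2 it was −0.64, and without sh-Scb replicate 1 it was −1.13.

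**Figure D3:**
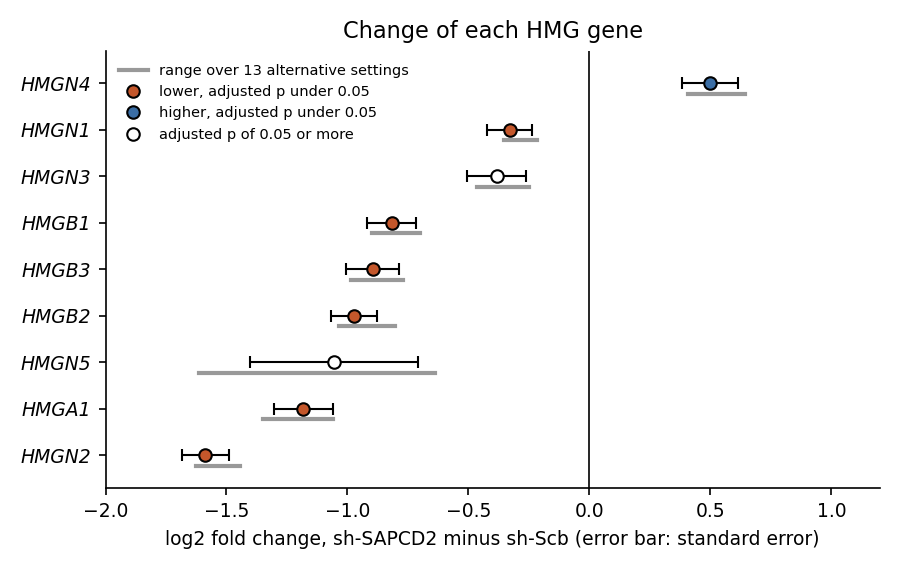
Log2 fold change (sh-SAPCD2 minus sh-Scb) of the 9 tested HMG genes with its standard error; filled points passed an adjusted p of 0.05 and grey bars span 13 alternative settings. HMGN2 lies lowest at −1.59 and HMGN4 highest at 0.50, and no grey bar crosses 0.

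The balance within the HMGN family differed between the groups by more than the spread of the libraries. Per kilobase of merged exons HMGN2 was 3.11 and 3.13 times HMGN4 in the sh-Scb libraries and 0.687 and 0.787 times HMGN4 in the sh-SAPCD2 libraries, a log2 difference of −2.08. HMGN2 was 1.48 and 1.45 times HMGN1 in the sh-Scb libraries and 0.612 and 0.617 times HMGN1 in the sh-SAPCD2 libraries, a log2 difference of −1.26. HMGN4 took 13.2% and 13.0% of the summed HMGN level in the sh-Scb libraries and 28.8% and 25.8% in the sh-SAPCD2 libraries. The summed level went from 223 ± 6.59 CPM per kilobase (SD, n = 2) to 151 ± 0.652, so 68.0% was kept, more than in the HMGB family or in HMGA1, for which 44.1% was kept. With the length of the canonical transcript in place of merged exons, the share of HMGN4 was 6.27% and 6.15% against 13.6% and 12.0%. HMGN2 was then 4.99 and 5.02 times HMGN4 in the sh-Scb libraries and still above it, at 1.10 and 1.26 times, in the sh-SAPCD2 libraries. It was below HMGN1 in both groups by that length, at 0.615 and 0.603 against 0.254 and 0.256 times. The log2 differences between the groups do not depend on the length, while the side of 1 on which a ratio lies does.

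Per kilobase of merged exons, the order of the mean levels in the sh-Scb libraries was HMGB2 (249 CPM), HMGA1 (165), HMGN2 (91.1), HMGN1 (62.0), HMGB1 (59.1), HMGN3 (38.5), HMGB3 (37.0), HMGN4 (29.2) and HMGN5 (2.03). HMGN1 and HMGB1 lay within the summed SD of their means (1.44 and 1.54). In the sh-SAPCD2 libraries HMGB2 (127) and HMGA1 (72.5) still led, followed by HMGN1 (49.3), HMGN4 (41.3), HMGB1 (33.6), HMGN2 (30.3), HMGN3 (29.5), HMGB3 (19.9) and HMGN5 (0.986). HMGN2 had gone from rank 3 to rank 6 and HMGN4 from rank 8 to rank 4, and there HMGN2 and HMGN3 overlapped. The order depends on the length used. By canonical transcript HMGN2 ranked 4 in both groups, HMGN4 went from rank 8 to rank 6, and HMGN1 ranked 2 in the sh-Scb libraries.

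The promoters of HMGN2 and HMGN4 are shown because these related genes moved in opposite directions. Each run covers 250 bases before and 50 after the RefSeq start site in GRCh38.p14, at chr1:26472190-26472489 for HMGN2 and chr6:26538116-26538415 for HMGN4, both on the plus strand. Capitals mark GGCGGGA, a shorter string like the E2F consensus searched below, chosen after the sequences were seen.

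HMGN2: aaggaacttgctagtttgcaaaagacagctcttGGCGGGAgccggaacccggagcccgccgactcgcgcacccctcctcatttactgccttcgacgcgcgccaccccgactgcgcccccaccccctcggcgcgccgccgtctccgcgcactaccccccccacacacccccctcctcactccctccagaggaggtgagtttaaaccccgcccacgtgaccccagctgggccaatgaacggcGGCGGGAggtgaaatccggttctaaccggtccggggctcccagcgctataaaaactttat
HMGN4: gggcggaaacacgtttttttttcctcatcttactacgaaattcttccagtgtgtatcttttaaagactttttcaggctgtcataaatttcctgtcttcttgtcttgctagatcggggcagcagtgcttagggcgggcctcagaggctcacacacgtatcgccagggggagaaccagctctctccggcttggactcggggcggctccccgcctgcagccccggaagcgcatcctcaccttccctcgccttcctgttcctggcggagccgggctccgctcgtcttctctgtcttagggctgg

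HMGN2 holds GGCGGGA 2 times, starting at bases −217 and −10 with the start site as base 0, and HMGN4 does not hold it on either strand. Of the 8 members with a RefSeq window (HMGA1, HMGB1, HMGB3, HMGN1, HMGN2, HMGN3, HMGN4 and HMGN5), 2 held it, HMGB1 and HMGN2, against 18.0% of 27305 genes. Because the string was chosen after these promoters were seen, its presence in HMGN2 and absence in HMGN4 is no test. For the same reason 2 of 8 members cannot be weighed against that share. HMGA1, HMGB3 and HMGN1, which also fell, did not hold the string, and HMGB2, which fell too, had no window. The part of the string in these values was not tested. The E2F consensus, read as TTTCCCGC, TTTCGCGC, TTTGCCGC or TTTGGCGC on either strand, was in none of the 12 windows of these 8 members and in 3.31% of 35116 windows of this length. That count depends on the reading of the consensus, since the shorter GGCGGGA was in 2 members. E2F factors were searched for because the study examined their activity. The study also named HMGA1 among predicted E2F7 targets that were lower in its SAPCD2-knockdown cells. It reported a positive correlation of HMGA1 with SAPCD2 in neuroblastoma patients. The study's motif search covered a wider region around the start site than these windows. A window without these letters says nothing of a factor's binding.

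The hairpin is printed because a short hairpin can also touch mRNAs that match its seed. The study's methods give the sequence of sh-SAPCD2 #1. That the sequenced cells carried this hairpin was read from the column labels of a figure of the study and is not stated in its text. Capitals mark bases 2 to 8 of each arm.

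sh-SAPCD2 #1 guide arm: aTGAAGGTggaatccagaggt
sh-SAPCD2 #1 passenger arm: aCCTCTGGattccaccttcat

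The match to the guide seed, ACCTTCA, was in the 3′ UTR of HMGA2 and HMGN5, against 12.5% of 12486 protein-coding genes with at least 1 CPM. HMGA2 had no counts and so is not among those genes. The match to the passenger seed, CCAGAGG, was in HMGB3 and HMGN1, against 17.8% of genes. The member sites are given with 11 bases on either side, each string in capitals.

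HMGA2, base 1855: aataaaagccaACCTTCAaagaaacttga
HMGB3, base 2095: gtgaggtttgcCCAGAGGcacttgttcca
HMGN1, base 52: tcttgtacaatCCAGAGGaatatttttat
HMGN5, base 37: tggtaacatgtACCTTCAtgttgtaaagt

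Positions count from the first base of the 3′ UTR of the canonical transcript. The part of these matches in the values was not tested.

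The genes that work with HMG proteins were read from lists. HMGN proteins compete with the linker histones, and of the 7 replication-dependent or replacement H1 genes listed, 4 were tested. Of these, 0 passed edgeR's test or that of DESeq2, while 1, H1-2, had an unadjusted p under 0.05 in edgeR. Over all tested genes 12.5% fell and 12.4% rose in edgeR, so 0 of 4 is too few to be a result about the linker histones. Without sh-SAPCD2 replicate 1 the number higher was 1, and without sh-SAPCD2 replicate 2 the number lower was 1. With the correction for GC content and length 2 were lower, and 1 was with the replicate block added. H1-10 stood at 299 and 291 CPM and at 185 and 317 CPM (−0.23, edgeR adjusted p = 0.512), so its knockdown libraries lay on both sides of the controls. H1-2 stood at 1.86 to 3.96 CPM (−0.79, edgeR adjusted p = 0.0858) and H1-4 at no more than 0.545 CPM (−0.29). H1-1, H1-3 and H1-5 were too low to test.

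HMGB2 is a part of the SET complex, which nicks DNA and repairs it. Of its 5 other subunits 1 fell, against 12.5% of all tested genes. That subunit was the histone chaperone SET, from 720 and 715 CPM to 458 and 451 CPM (−0.66, SE 0.0885, edgeR adjusted p = 0.00591). A single call in so short a list is not a result about the complex. The number that fell was 0 without either sh-Scb library and 2 without either sh-SAPCD2 library, and without sh-SAPCD2 replicate 1 another 2 were higher. ANP32A (−0.25), the abasic-site endonuclease APEX1 (0.23), the nucleoside diphosphate kinase NME1 (0.31) and the exonuclease TREX1 (−0.31) did not pass. Of the 8 receptors and partners listed for extracellular HMGB1, 4 were tested and 1 rose, against 12.4% of all tested genes. This was the chemokine receptor CXCR4, at 3.26 and 3.38 CPM in the sh-Scb libraries and 5.81 and 5.51 CPM in the sh-SAPCD2 libraries (0.77, SE 0.204, edgeR adjusted p = 0.0402), while DESeq2 called 0 of these receptors and edgeR 0 without sh-Scb replicate 2. AGER, the receptor RAGE, stood at 0.362 to 0.472 CPM (0.08, edgeR adjusted p = 0.923) and TLR4 at 0 to 0.830 CPM (2.08, edgeR adjusted p = 0.176). CD24 stood at 570 to 631 CPM (−0.07, edgeR adjusted p = 0.640), and TLR2, TLR9, HAVCR2 and TREM1 were too low to test.

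Other proteins with an HMG box moved less. Of 17 tested, 6 fell and 1 rose, against 12.5% and 12.4% of all tested genes. The median log2 fold change was −0.29, against −0.90 over the HMG members. The number that fell was 0 when either sh-Scb library was left out, 11 without sh-SAPCD2 replicate 1 and 8 without sh-SAPCD2 replicate 2. Among those with the smallest p that fell were the FACT histone chaperone subunit SSRP1 (−0.67), the H3K36 methyltransferase NSD2 (−0.63), the ribosomal DNA factor UBTF (−0.57) and the chromatin remodeling subunit PBRM1 (−0.62). SSRP1 stood at 301 and 313 CPM in the sh-Scb libraries and at 191 and 194 CPM in the sh-SAPCD2 libraries (edgeR adjusted p = 0.00625). The 1 that rose was TOX2 (0.51, edgeR adjusted p = 0.0454), which was named after its value was seen, and DESeq2 called 0 of the list higher. HMGB4, a relative of the HMGB genes known from testis, had no count in any library.

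**Figure D4:**
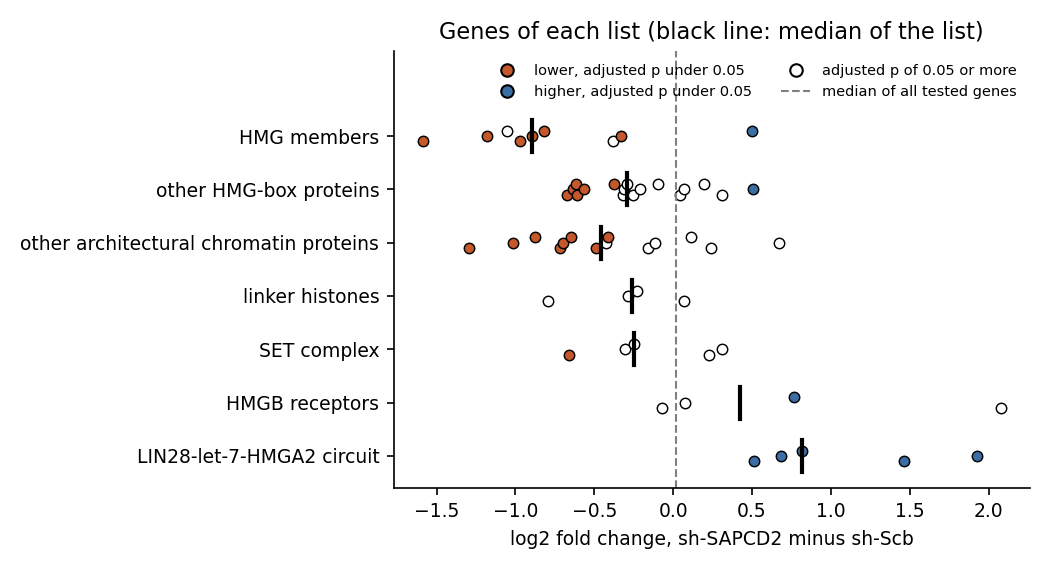
Log2 fold change (sh-SAPCD2 minus sh-Scb) of each tested gene in 7 lists, the cell-cycle and cell type marker lists left out. Black lines are list medians, from −0.90 for the HMG members to 0.82 for the LIN28, let-7 and HMGA2 circuit, and the dashed line is the median of all tested genes at 0.02.

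HMGB2 is also a member of the Seurat G2/M list, a set of genes that peak as cells approach division, and the cell-cycle lists moved in the direction of the HMG genes. Of the 54 tested G2/M genes 42 fell and 1 rose, with a median log2 fold change of −0.77, and of the 43 tested S-phase genes 37 fell and 0 rose, with a median of −1.04. Over all tested genes 12.5% fell and 12.4% rose. At an unadjusted p under 0.05, 1 S-phase gene was higher, and 0 were by DESeq2. Without sh-Scb replicate 2 the number of G2/M genes that fell was 26. The summed level of the S-phase list was 4642 and 4660 CPM in the sh-Scb libraries and 2539 and 2408 CPM in the sh-SAPCD2 libraries. HMGB2 was not among the extremes of its list, since 16 of the 54 G2/M genes had a lower log2 fold change. The part of the cell cycle in the values of the HMG genes was not tested.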

How the data were processed

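Total RNA of 4 libraries, 2 sh-Scb and 2 sh-SAPCD2, was made into Illumina TruSeq libraries. Reads were aligned to hg38 with HISAT2 2.2.0, per the submitters' processing notes, abundances were estimated with StringTie, and the authors deposited whole-number counts per Ensembl gene without scaling. The step from coverage to counts, the Ensembl release, the strand setting and the counting of reads that match several places are not given in the sources used here. A level of 3 counts was taken as the limit of detection.

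Genes were matched to GENCODE 44. Counts were scaled by TMM and tested in R 4.3.3 by edgeR 4.0.16 (quasi-likelihood, two-sided), with Benjamini-Hochberg adjustment over the 18779 genes that passed filterByExpr (minimum count 10, minimum total count 15). The biological coefficient of variation was 15.4%. The code was tested on simulated data. Alternatives were each library left out in turn, the Wald test of DESeq2 1.42.0, edgeR with DESeq2 size factors or plain library totals for TMM, the filter dropped or set at a mean of 1 CPM, the replicate block, a loess correction for GC content and length (span 0.3) alone or with the block, and pseudogene counts added to the member. Transcript length in place of merged exons and the string GGCGGGA were chosen after the values were seen. Lengths, 3′ UTRs and overlaps came from GENCODE, promoters and miRNAs from RefSeq, and the G2/M and S-phase lists from Seurat 5.3.0. Protein sequences were not analysed here.

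All members were named. Of a context list all genes were named if at most 9 were tested, and otherwise at most the 5 with the smallest p. TOX2, HMGB4, CBX1, CBX3, CBX5, CTCF and NPM1 were named outside this rule after their values were seen. Some genes and a sequence are not reported here. The members, lists and tests were chosen with earlier results of these data known.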

Additional observations from a re-analysis of the deposited data

How the results depend on the processing

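The calls of HMGA1, HMGB1, HMGB2, HMGB3 and HMGN2 held in all 13 alternatives, and no HMG gene changed direction in any. HMGN1 lost its call in 6 (adjusted p up to 0.541) and HMGN4 in 3, while HMGN3 gained one in 2, without either sh-SAPCD2 library, and HMGN5 in 5. With the replicate block HMGN1 had an adjusted p of 0.121 and HMGN5 fell by 1.11 on the log2 scale (adjusted p = 0.00556). Members lower numbered 6 with the replicate block too. The within-group differences between replicates 1 and 2 correlated at −0.0188 across the groups. This gave no sign that shared replicate numbers mark a pair, but it cannot exclude a pairing. Without the filter on low counts SAPCD2 had −0.91 (adjusted p = 0.0749), no member was higher (0), and 14 genes passed in place of 22 over the 6 lists of linker histones, SET complex, HMGB receptors, LIN28 circuit, other HMG-box and other architectural proteins. With one library left out, members higher ranged from 0 to 1, members lower from 5 to 8 and genes of these 6 lists that passed from 5 to 38, the fewest without sh-Scb replicate 2 and the most without sh-SAPCD2 replicate 1. SAPCD2 then ranged from −1.23 to −0.67. The library left alone in its group was assumed to vary like the other group. Asking also for a log2 fold change over 1 left 2 members lower and 0 higher. The E2F consensus was in 0 members and the shorter E2F-like string GGCGGGA in 2. Over all genes, 1180 fell and 1081 rose without the filter, 3445 and 3989 with the correction for GC content and length, and 1146 to 4014 fell and 1176 to 4396 rose with one library left out. The causes of these shifts were not tested. HMGN5 rests on 50 to 141 counts per library and HMGA2 on 0.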

Other observations

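Genes for other proteins that organize chromatin were lower in several cases. Of 14 architectural genes tested outside the HMG families, 8 fell and 0 rose by edgeR's quasi-likelihood test (0 also by DESeq2 and at an unadjusted p under 0.05), with a median log2 fold change of −0.46 and 12.5% of all tested genes lower. Without sh-Scb replicate 1 the number that fell was 4, and without sh-Scb replicate 2 it was 3. Without sh-SAPCD2 replicate 1, 11 were lower and 2 higher. Among those with the smallest p were PARP1, the sensor of DNA breaks, with 441 and 442 CPM in the sh-Scb libraries and 189 and 172 CPM in the sh-SAPCD2 libraries (−1.29, SE 0.0996), DEK, which supercoils DNA (−1.01), NUCKS1 (−0.88) and the chromatin loop anchor SATB1 (−0.65). NUCKS1, whose charge resembles that of the HMG proteins, stood at 787 and 782 CPM against 473 and 383 CPM. The heterochromatin protein CBX5, the insulator CTCF and the histone chaperone NPM1 also fell, while CBX1 (−0.12) and CBX3 (−0.16), relatives of CBX5, did not pass.

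Among 13899 genes with a mean of at least 1 CPM, the 3 genes most like each of the 7 HMG genes that passed the test were found over the 4 libraries by the root mean square difference of centered log2 CPM. For HMGN2 the nearest were LINC01224 (0.0194), PCLAF (0.0205), a partner of the replication clamp, and the spindle checkpoint gene MAD2L1 (0.0280). For HMGA1 they were MOB3A (0.0192), NNAT (0.0271) and the mitotic kinase AURKB (0.0323), for HMGB1 ELOVL5, DCP1B and PALB2, for HMGB2 NSA2, P3H2 and PAN2, and for HMGB3 RMDN1, ZNF684 and ANGPT1. For HMGN1 they were DYM, GLYR1 and COQ4, and for HMGN4 UNC79, the MHC light chain B2M and RMND1. With 4 libraries in 2 groups, such a likeness mostly reflects the difference between the groups.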
